A study of Mus musculus with 2 samples.

Results

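The cells described here are the mitotic epithelial cells of mouse ileal enteroids, cultures of intestinal epithelium grown from crypts in a gel matrix. They were selected on the sum of 5 transcripts of dividing cells, Mki67, Top2a, Cenpf, Ccnb1 and Cdc20. A cell was a member if it held at least 2000 unique molecular identifiers (UMIs, each marking 1 captured RNA molecule) and at least 8 UMIs of these genes per 10000. This gave 382 of the 4374 cells in both libraries, 315 in wt and 67 in ko.

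The wt library came from Taf4 lox/lox enteroids and the ko library from Taf4 lox/lox::VilCreERT2 enteroids (called Taf4 IEC), both of the C57Bl6/129sv strain and grown from crypts isolated at an age of 4 months. In ko, 1 µM 4-hydroxytamoxifen (4-OHT) was given for 3 days to a Cre recombinase under the Villin promoter, which acts in epithelial cells, so both groups carry the floxed alleles and the enteroids hold no stroma. The study's methods give 4-OHT for the control as well, whereas the label of the wt library names ethanol alone, so that an effect of 4-OHT and an effect of Taf4 deletion cannot be told apart here. Treatment began on day 5 of culture, and live cells were sorted and captured on day 8. The question put to the samples was how loss of Taf4, which belongs to the TFIID complex that starts transcription at promoters, altered the cells of the enteroid, and there was 1 library per group. No test between the groups was therefore possible, and every 95% interval below covers the error of counting molecules or cells only.

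Cells of the intestinal crypt divide often, and their daughters stop dividing as they turn into enterocytes, goblet, Paneth or enteroendocrine cells. Most transcripts of mitosis are low in G1, are transcribed late in S phase and in G2, and are held in check at other times by the DREAM complex, which is recruited to promoters through the cell cycle genes homology region (CHR). The kinase complex of cyclin B and Cdk1 starts mitosis, and the anaphase-promoting complex with its activator Cdc20 ends it by marking cyclin B and securin for destruction. The tumour suppressor p53 counters this programme mainly through p21, the product of Cdkn1a.

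The promoters of the genes used for selection share sequence that the selection did not use. The RefSeq promoter table (GRCm38.p6, 250 bases before to 50 after each start) held all 5 of these genes, and each window had a CHR match (TTTGAA or TTTAAA) and at least 2 CCAAT matches, searched on both strands, with no E2F match (TTTCCCGC or TTTGGCGC). Below are the 250 bases before the start of Ccnb1 (cyclin B1, chr13:100786487-100786736), Cdc20 (chr4:118437344-118437593) and Top2a (topoisomerase IIα, which untangles sister chromatids, chr11:99024190-99024439), with Mcm6 (a subunit of the replicative helicase, chr1:128359706-128359955) as an S phase gene for contrast. All 4 lie on the minus strand and are printed 5′ to 3′ along the gene, with CHR, CCAAT and E2F matches of either strand in capitals.
Ccnb1: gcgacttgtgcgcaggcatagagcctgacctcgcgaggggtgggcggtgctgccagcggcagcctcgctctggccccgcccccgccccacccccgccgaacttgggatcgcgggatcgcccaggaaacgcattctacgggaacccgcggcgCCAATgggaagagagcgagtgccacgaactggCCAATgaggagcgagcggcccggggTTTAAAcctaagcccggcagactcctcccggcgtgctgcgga
Cdc20: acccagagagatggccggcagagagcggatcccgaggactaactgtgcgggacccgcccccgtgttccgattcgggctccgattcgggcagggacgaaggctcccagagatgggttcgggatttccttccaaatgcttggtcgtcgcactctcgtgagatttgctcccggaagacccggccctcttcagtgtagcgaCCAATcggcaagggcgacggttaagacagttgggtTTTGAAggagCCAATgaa
Top2a: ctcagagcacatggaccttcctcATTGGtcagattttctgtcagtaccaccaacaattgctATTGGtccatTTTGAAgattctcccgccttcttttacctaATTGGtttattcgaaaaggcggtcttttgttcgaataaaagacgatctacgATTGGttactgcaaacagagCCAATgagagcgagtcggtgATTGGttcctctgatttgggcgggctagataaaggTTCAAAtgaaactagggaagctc
Mcm6: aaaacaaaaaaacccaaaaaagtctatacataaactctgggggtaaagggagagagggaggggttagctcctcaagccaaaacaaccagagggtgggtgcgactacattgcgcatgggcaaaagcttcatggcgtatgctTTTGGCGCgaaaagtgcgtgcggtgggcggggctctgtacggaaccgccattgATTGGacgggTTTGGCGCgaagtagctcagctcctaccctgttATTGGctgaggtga

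The Ccnb1 and Cdc20 windows each held 1 CHR match close to the start and 2 CCAAT matches, the Top2a window held 2 CHR and 6 CCAAT matches, and only the Mcm6 window of these 4 held E2F matches. Mcm6 was taken from the S phase genes with an E2F match, so that its matches follow from that choice. Of 97 further genes of mitosis, listed by role and described below, 82 were in the table with 93 promoters. A CHR match was in 62.4% of them, against 27.6% of all 32851 promoters of the table, and a CCAAT match was in 71.0% against 37.4%. Both were present in 48.4% of the mitosis promoters and in 10.7% of all. The 28 promoters of the S phase list differed from them in CHR (25%) and in E2F (32.1%), where the mitosis promoters had E2F in 6.45% and all promoters in 1.56%. They were close to the mitosis promoters in CCAAT, at 64.3%, and the promoters of a list of p53 target genes had CCAAT in 60.7%. CCAAT was thus not particular to the mitosis genes. In the mitosis promoters, 56 of the 82 CHR matches (68.3%) lay in the last 100 bases of the window, from 50 before to 50 after the start, against 25.1% of 11715 matches in all promoters. Such a match is a description of the letters and not evidence of binding.

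The label was checked on genes outside the selection. Ccnb2 (cyclin B2) and Hmmr (a spindle-associated receptor), both named as markers of these cells, were higher in members than in the other cells of at least 2000 UMIs by 2.73 and 3.86 on the log2 scale in wt, and by 3.66 and 5.40 in ko. Summed over 97 listed mitosis genes, the members held 106 UMIs per 10000 in wt (95% interval 106 to 107) and 99.7 in ko (97.9 to 101), against 19.9 and 14.1 in the other cells. Single members ranged from 40.3 to 215 around a median of 97.8 in wt and from 36.1 to 222 around a median of 92.0 in ko. In wt, 92 of the 97 listed genes that passed a filter of 50 UMIs over both sets of cells were at least 2-fold higher in members, and 3.89% of all 11070 genes were. In ko it was 85 of the 88 that passed, against 8.97% of 10710 genes. These counts describe the cells and test nothing, since the selection used the same contrast.

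The members had low levels of enterocyte and enteroendocrine transcripts. The enterocyte list had a median log2 ratio of members over other cells of -3.26 in wt and -4.38 in ko, and the enteroendocrine list one of -4.86 and -6.43. Paneth genes (-0.97 and -1.70) and goblet genes (-1.65 and -0.79) were lower by less, and are described further below. Genes of non-epithelial cells summed to 26 UMIs in wt members and 6 in ko members, and tuft cell genes to 10 and 2. Among all genes, those with the highest ratio in both libraries were, besides Cenpf and Ccnb1 of the selection itself, Aspm (spindle poles; 4.58 in wt and 5.30 in ko), Nusap1 (spindle microtubules; 4.55 and 5.81), Kif2c (a microtubule depolymerase at centromeres; 4.43 and 4.93), the histone gene Hist1h2ab (4.15 and 5.73), Prc1 (the midzone bundling protein; 4.03 and 5.59), Ckap2l (4.00 and 5.54), Hmmr, and Aurka (Aurora A kinase; 3.84 and 4.72).

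The cells nearest to the members were those outside the selection with at least 8 UMIs of Mcm2 to Mcm7 per 10000, 139 in wt and 32 in ko, called Mcm-high below. The Mcm genes encode the helicase that opens DNA for replication. Relative to these cells the members had the mitosis genes higher, with median log2 ratios of 2.01 in wt and 1.81 in ko, and Ccnb2 higher by 5.29 and 4.31. Their S phase genes were lower, at 18.8 UMIs per 10000 in wt members against 39.4 in Mcm-high cells and at 18.8 against 41.3 in ko. The S phase list includes the Mcm genes that chose those cells. Of the members themselves, 17 in wt (5.40%) and 3 in ko (4.48%) also reached the Mcm threshold, so few cells held both programmes at these levels.

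**Figure D1:**
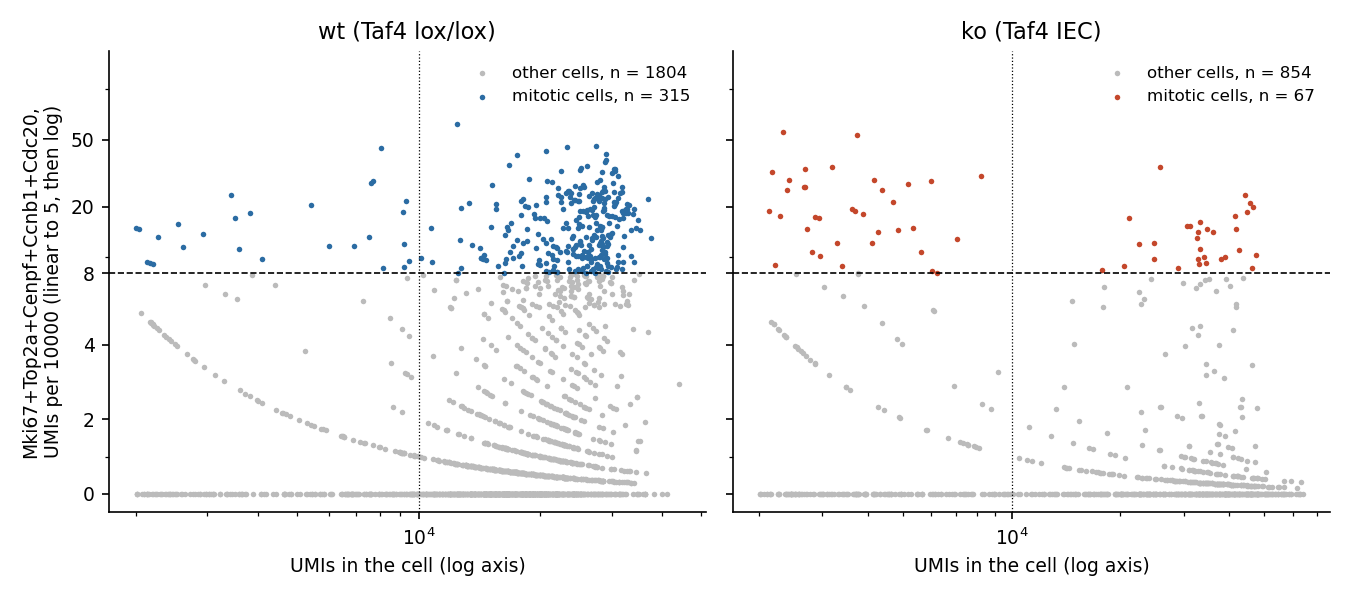
Sum of Mki67, Top2a, Cenpf, Ccnb1 and Cdc20 (vertical axis, UMIs per 10000, linear to 5 and logarithmic above) against the UMIs of each cell (horizontal log axis) in wt (left) and ko (right). Members lie above the dashed line at 8. The 315 wt members crowd at high depth, with a median of 25376 UMIs, while the 67 ko members fall into a shallow and a deep group on either side of 10000 UMIs, with a median of 6223.

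Members sat on a continuum of the sum that selected them. The wt members just inside the threshold had sums of 8.00, 8.01 and 8.06 per 10000 and the wt cells just outside had 7.97, 7.96 and 7.91. In ko the values just inside were 8.03, 8.30 and 8.41. The median member had a sum of 14.6 in wt and 14.7 in ko, with highest values of 61.8 and 55.6, and the median of the other cells was 0.392 in wt and 0 in ko. Membership rested on 3 UMIs or fewer in 7 wt members (2.22%) and 4 ko members (5.97%). The libraries shared 2 cell barcodes, which concerned 1 ko member and 0 wt members.

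Mitotic cells were a smaller share of the ko library. They made up 14.9% of the 2119 wt cells with at least 2000 UMIs (95% Clopper-Pearson interval 13.4 to 16.5%) and 7.27% of the 921 ko cells (5.68 to 9.15%). The difference was -7.59 percentage points (-9.84 to -5.20). Of all cells, shallow ones included, members were 12.3% of 2563 in wt and 3.70% of 1811 in ko.

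Depth moved with this result, and its part in it was not tested. The libraries held 39947009 UMIs on 16061 genes in wt and 24990128 on 15786 genes in ko, with medians per cell of 16749 and 2254. In wt the members were deeper than the other cells (medians of 25376 and 18024 UMIs), and in ko they were shallower (6223 and 29752). Cells under 10000 UMIs made up 8.57% of wt members (27 cells) and 53.7% of ko members (36 cells). Among cells of 10000 UMIs or more, 288 of 1828 were mitotic in wt and 31 of 688 in ko, a difference of -11.2 points (-13.5 to -8.79). Among cells of 2000 to 10000 UMIs the order was the opposite, with 27 of 291 in wt and 36 of 233 in ko, a difference of 6.17 points (0.279 to 12.3). The share was thus lower in ko among the deeper cells and higher in ko among the shallower ones.

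Finer bins showed the same split. The mitotic share in wt was 10.7% at 2000 to 5000 UMIs, 8.13% at 5000 to 10000, 5.93% at 10000 to 20000, 23.6% at 20000 to 30000 and 36.6% above. In ko it was 17.2, 11.4, 1.00, 4.93 and 5.16% over the same bins. The highest share thus fell in the deepest cells in wt and in the shallowest in ko. Below 2000 UMIs the threshold carries little meaning, since 1 UMI can reach it: 106 of 444 wt cells (23.9%) and 237 of 890 ko cells (26.6%) did, of which 55.7% and 68.4% had a single UMI of the 5 genes.

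**Figure D2:**
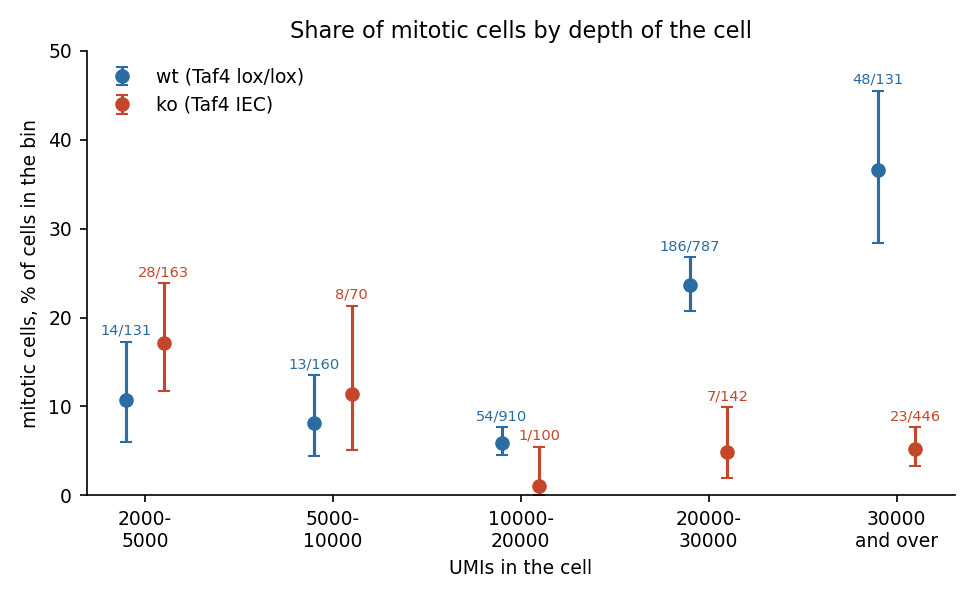
Share of cells that were mitotic (vertical axis, %) by UMIs in the cell (horizontal axis, 5 bins) in wt and ko, with 95% Clopper-Pearson intervals and the number of mitotic cells over cells in each bin. The wt share climbs to 36.6% in the deepest bin, where the ko share is 5.16%, and the ko share is highest, at 17.2%, in the shallowest bin.

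A ceiling on genes per cell also differed between the libraries and bore on the deepest members. No wt cell had 5000 genes or more (the highest count was 4999), whereas 335 of the 921 ko cells (36.4%) and 24 of the 67 ko members (35.8%) did. Mitotic cells stood close under that ceiling in wt, where 127 of 315 members (40.3%) had 4500 to 5000 genes and 46.9% of the 271 wt cells in that range were mitotic, against 4 of 172 (2.33%) in ko. Without the cells of 5000 genes or more the difference in share was -7.53 points. How many wt members a ceiling would have removed was not tested.

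The shallow ko members held mitosis transcripts at about the level of the deep ones. Their mitosis genes summed to 96.4 UMIs per 10000 (91.3 to 102), the deep ko members had 100.1, and other ko cells of 2000 to 10000 UMIs had 17.5. Shallow and deep members met the same threshold of mitotic transcripts, so these levels are not independent of the selection. Shallow and deep ko members differed in RNA composition. Mitochondrial transcripts were 4.24% of UMIs in shallow and 8.21% in deep ko members, and Gm42418 with AY036118, which share sequence with ribosomal RNA, were 2.36% and 0.350%. Shallow wt members also held more of the last pair than deep ones, at 1.55% against 0.179%, with mitochondrial shares of 6.48 and 7.14%.

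Taf4 itself (chromosome 2, 179912146 to 179976646, GRCm38.p6) gave 63 UMIs in wt members and 11 in ko members, or 0.0856 and 0.0916 per 10000, a log2 ratio of ko over wt of 0.10 (-0.98 to 1.03). The reads come from the 3′ end of transcripts, and the sources used here do not place the deleted part against them, so this level checks nothing about the deletion. Its paralog Taf4b had 26 and 12 UMIs, 0.0353 and 0.0999 per 10000 and a log2 ratio of 1.497 (0.38 to 2.54).

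The genes of the selection had a different make-up in ko, given here as a description. Top2a (chromosome 11, 98992947 to 99024199) was at 6.10 UMIs per 10000 in wt members and 4.10 in ko members, and its part of the 5-gene sum was 36.2 and 27.7%. Cdc20 (chromosome 4, 118432901 to 118437343) was at 1.85 and 2.97, with 11.0 and 20.1% of the sum. The other 3 lay closer together, at 3.90 and 3.68 for Mki67 (the Ki67 protein coats mitotic chromosomes), 3.40 and 2.62 for Cenpf (a kinetochore protein) and 1.60 and 1.40 for Ccnb1. The ko members thus owed less of their sum to Top2a and more to Cdc20.

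Levels pool the UMIs of all members of a library, so that deep cells weigh most. In ko, 1061948 of the 1201143 UMIs lay in the 31 members of 10000 UMIs or more. For most genes the levels and ratios of ko members thus describe mainly those 31 cells. For the comparison of ko with wt members, 8349 genes had at least 50 UMIs over both sets. Of these, 494 (5.92%) were at least 2-fold higher and 232 (2.78%) at least 2-fold lower in ko, and the median log2 ratio over all of them was 0.21. That median and that split depend on the total used. When mitochondrial, ribosomal protein, Gm42418 and AY036118 transcripts were left out of the total, every ratio in the same cells shifted by -0.16, the median became 0.06 and 324 genes were higher and 314 lower, so that the higher ones made up 50.8% of both in place of 68.0%. Ribosomal protein transcripts were 33.7% of UMIs in wt members and 25.8% in ko members. List medians below are therefore to be set beside the median of all genes, 0.21, whereas intervals of single genes are given against 0.

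**Figure D3:**
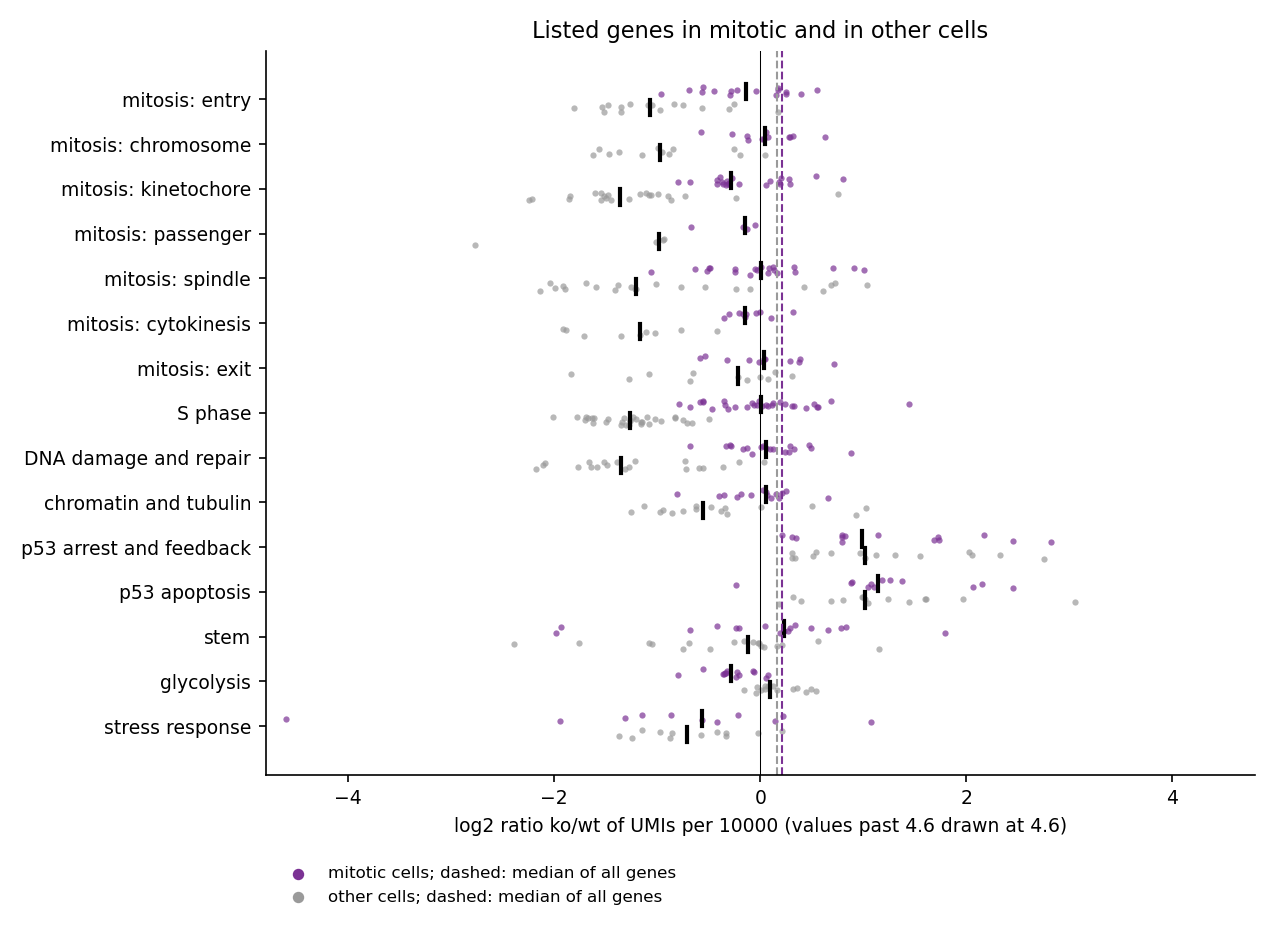
Log2 ratio of ko over wt (horizontal axis, from UMIs per 10000) for the genes of 15 lists in mitotic cells (purple) and in the other cells (grey). Each point is a gene, bars are list medians and dashed lines the medians of all genes (0.21 in mitotic and 0.16 in other cells). The purple mitosis points centre near 0 (median -0.05) where the grey ones centre near -1.09, both p53 lists lie to the right in both, and Chac1, with 0 UMIs in ko members, is drawn at the left edge.

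Mitotic cells of the ko library had the mitosis genes at nearly the wt level. Of the 97 listed genes, 96 passed the filter, 1 was at least 2-fold higher, 1 at least 2-fold lower, and the median log2 ratio was -0.05. In the other cells the same list had a median of -1.09, with 55 of 96 genes at least 2-fold lower in ko, against 4.03% of the 11777 genes compared there. The selection asked for the same sum of mitotic transcripts in both libraries, so this median is not independent of it.

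Genes of mitotic entry had a median ratio of -0.13, with 0 of 16 past 2-fold. Ccna2 (cyclin A2) was at 1.498 and 1.67 UMIs per 10000 in wt and ko members, a ratio of 0.15 (-0.07 to 0.37), and Ccnb2 at 1.58 and 1.77, a ratio of 0.17 (-0.05 to 0.38). Cdk1, the kinase both cyclins activate, was lower, at 3.37 and 2.46 (-0.45, -0.63 to -0.28). The largest difference was in Fbxo5 (Emi1, an inhibitor of the anaphase-promoting complex before mitosis), at 0.648 and 0.333 (-0.96, -1.46 to -0.49). The polo-like kinase Plk1 had an interval that spanned 0, from -0.55 to 0.09. Entry genes were thus close between the libraries except for Cdk1 and Fbxo5, among those named here.

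Chromosome condensation genes had a median of 0.04 and kinetochore genes one of -0.29, again with none of 12 and none of 22 past 2-fold. Both lay below the 0.21 of all genes. The condensin subunit Smc2 was at 2.26 and 2.38 UMIs per 10000 and Smc4 at 3.67 and 3.02. Anp32e, a histone H2A.Z chaperone, was the highest of its list in ko, at 1.89 and 2.93 (0.63, 0.46 to 0.80). At the kinetochore, Cenpa (the centromeric histone H3) was level at 2.51 and 2.67 (0.09, -0.08 to 0.26), whereas Hjurp, the chaperone that loads it, was at 1.498 and 0.932 (-0.68, -0.98 to -0.40). The cohesin protector Sgo2a was at 0.639 and 0.366 (-0.80, -1.28 to -0.36). Of the checkpoint genes, Mad2l1 was at 0.914 and 0.949 and Bub1b at 0.568 and 0.441, both with intervals across 0.

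In the chromosomal passenger complex, which corrects faulty attachments, Aurkb (its Aurora B kinase) was at 1.32 UMIs per 10000 in wt and 0.824 in ko (-0.68, -0.99 to -0.38). Its partner Birc5 (survivin) was at 3.43 and 3.31 (-0.05, -0.21 to 0.10). In the other cells Aurkb had the lowest ratio of the complex, -2.76. The kinase and its targeting subunit therefore did not stand at the same ratio in members.

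The spindle list held both genes of the mitosis lists that passed 2-fold. Psrc1, a spindle microtubule protein that is also a p53-responsive gene, was at 0.426 and 0.858 (1.01, 0.68 to 1.34), and Kif18a, a kinesin that limits chromosome oscillation, at 0.279 and 0.133 (-1.06, -1.90 to -0.33) from 205 and 16 UMIs. Ckap2, another spindle protein, was at 0.810 and 1.52 (0.91, 0.66 to 1.15), and Hmmr at 1.75 and 1.91 (0.13, -0.08 to 0.33). Psrc1 and Ckap2 were higher in ko outside the members too, with ratios of 1.03 and 0.61 in the other cells. Aurka (0.938 and 0.666) and Nusap1 (1.74 and 1.12) were lower, by -0.49 and -0.63. The median of the list was 0.01.

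Cytokinesis genes had a median of -0.14 and genes of mitotic exit one of 0.03, with none past 2-fold. Prc1 was at 1.90 and 1.49 UMIs per 10000 (-0.35, -0.58 to -0.12) and Racgap1, part of the centralspindlin complex, at 0.968 and 0.783 with an interval across 0. Among exit genes, 2 ubiquitin-conjugating enzymes of the anaphase-promoting complex parted, with Ube2c at 8.75 and 5.83 (-0.59, -0.70 to -0.47) and Ube2s at 5.74 and 5.69 (-0.01, -0.13 to 0.10). Pttg1 (securin, the inhibitor of separase) was higher in ko, at 1.49 and 2.45 (0.72, 0.53 to 0.91), which in the shallow members alone was -0.91 and in the deep ones 0.83.

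The S phase genes of members also stood at the same summed level in both libraries, at 18.8 UMIs per 10000 in each, with a median ratio below the 0.21 of all genes. Over 30 of 32 genes that passed the filter the median ratio was 0.00, with 1 gene at least 2-fold higher, against -1.26 and 25 of 32 genes at least 2-fold lower in the other cells (4.03% of all genes) and 0.12 in Mcm-high cells. This value is not firm. It was -0.58 over 29 genes without the cells of 5000 genes or more, and -0.57 over 32 genes when the reduced total was also used to select the cells, which made 465 wt and 91 ko cells members. With the reduced total and the same cells it was -0.16. Pcna, the sliding clamp of DNA polymerase, was at 0.964 and 0.957 (-0.01, -0.31 to 0.28), Mcm6 at 0.633 and 0.533, Dut at 2.57 and 1.71 (-0.59) and Rrm2, the regulated subunit of ribonucleotide reductase, at 0.651 and 1.05 (0.69, 0.39 to 0.97). The gene past 2-fold was Ccne1 (cyclin E1), with 36 and 16 UMIs and a ratio of 1.44 (0.50 to 2.33), of which 31.2% of the ko UMIs came from a single cell.

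Relative to the other cells of their library, S phase genes were higher in members by a median of 0.51 in wt and 1.67 in ko. At least 2-fold higher were 5 of 32 genes in wt and 29 of 31 in ko, against 3.89 and 8.97% of all genes. The summed level in members was 18.8 UMIs per 10000 in each library, within the limits just given, and in the other cells it was 12.2 in wt and 5.39 in ko. DNA damage and repair genes followed the same pattern, with a median ratio of ko over wt of 0.06 in members over 19 of 20 genes and -1.36 in other cells. Chromatin and tubulin genes had a median of 0.05 with none past 2-fold, although Tubb5 was at 16.0 and 9.11 UMIs per 10000 (-0.81, -0.90 to -0.72).

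Against this background the p53 target genes stood out by their level in ko members. They summed to 12.5 UMIs per 10000 in wt members (12.3 to 12.8) and 29.7 in ko members (28.7 to 30.7). Single members ranged from 0 to 33.5 around a median of 11.1 in wt and from 3.67 to 60.0 around a median of 26.1 in ko, so that the cells overlapped. Of 30 genes, 26 passed the filter and 16 were at least 2-fold higher, with none lower, against 5.92 and 2.78% of all genes. The median ratio was 1.12. The shift was not particular to dividing cells, with medians of 1.07 in Mcm-high and 1.02 in other cells. Within members it was present in the deep cells (median 1.13) and in the summed level of the shallow ones (11.6 and 25.2), where only 2 genes passed the filter and had a median of 0.052.

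**Figure D4:**
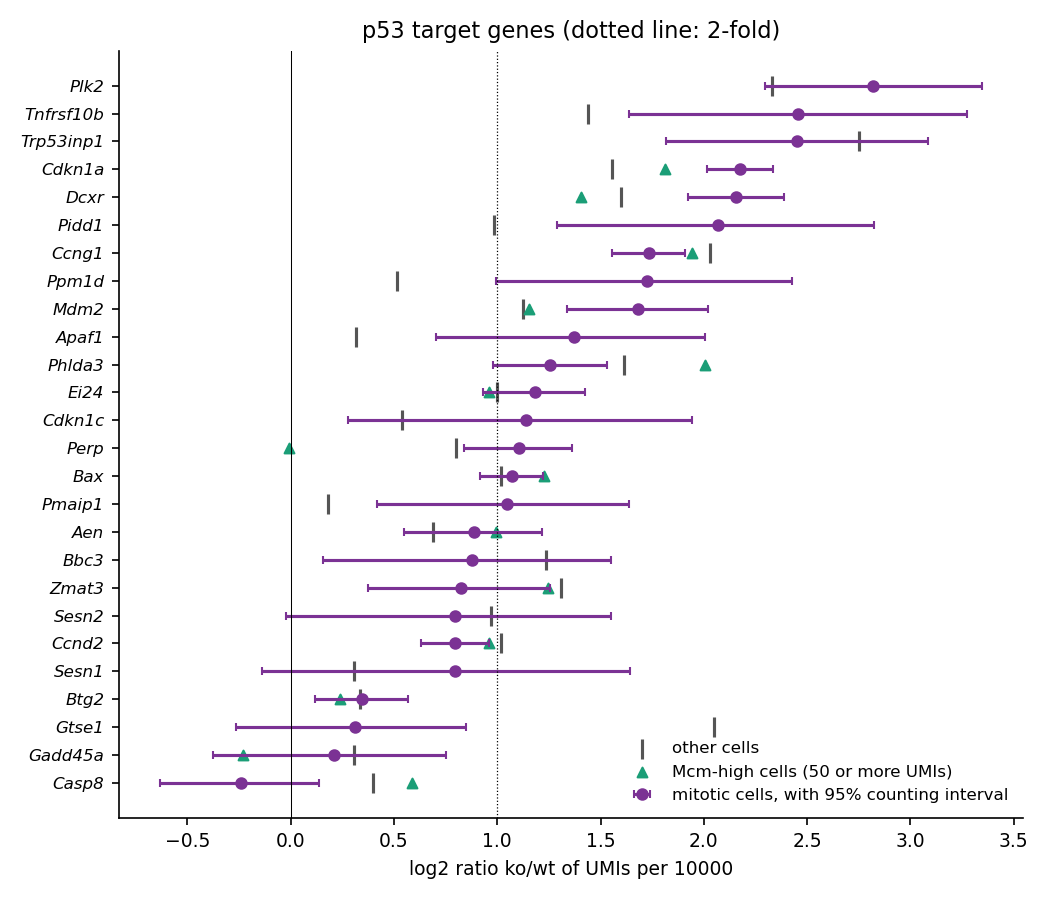
Log2 ratio of ko over wt (horizontal axis, from UMIs per 10000) of the 26 p53 target genes that passed the filter, in mitotic cells (purple, with 95% counting intervals), Mcm-high cells (triangles, for genes with 50 or more UMIs there) and other cells (ticks). In mitotic cells 16 genes lie at or past the dotted 2-fold line, from Plk2 at 2.82 to Pmaip1 at 1.04, and Casp8 lies lowest at -0.24.

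The arrest and feedback genes had a median of 0.98, with 7 of 14 at least 2-fold higher, against 5.92% of all genes. Cdkn1a (p21, an inhibitor of cyclin-dependent kinases, chromosome 17, 29090979 to 29100722) was at 1.01 UMIs per 10000 in wt members and 4.58 in ko members (2.175, 2.01 to 2.34), from 746 UMIs in 196 cells and 550 UMIs in 50 cells. Its ratio was 1.81 in Mcm-high and 1.55 in other cells, and its richest ko member held 15.5% of the ko UMIs. Ccng1 (cyclin G1, a feedback regulator of p53) was at 1.01 and 3.35 (1.73, 1.55 to 1.91), and Mdm2, the ubiquitin ligase that removes p53, at 0.285 and 0.916 (1.68, 1.34 to 2.02). Both were seen in at least 34 of the 67 ko members. Plk2 (2.82, 2.29 to 3.35) and Trp53inp1 (2.45, 1.82 to 3.08) had the largest ratios of these genes, from 68 and 42 ko UMIs.

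The apoptosis genes had a median of 1.142, with 9 of 12 at least 2-fold higher, against 5.92% of all genes. Bax, which permeabilizes the mitochondrial outer membrane, was at 1.89 and 3.96 UMIs per 10000 (1.07, 0.92 to 1.22), and Phlda3, an inhibitor of Akt signalling, at 0.533 and 1.27 (1.26, 0.98 to 1.53). The death receptor Tnfrsf10b was at 0.0394 and 0.216 (2.46, 1.64 to 3.27). Further death receptors lay under the filter, Eda2r with 11 and 24 UMIs and Fas with 5 and 13. Of the BH3-only genes, Pmaip1 (Noxa) had a ratio of 1.04 (0.42 to 1.64) and Bbc3 (Puma) one of 0.88 (0.15 to 1.55). Casp8 was the only gene of both lists below 0, at -0.24 (-0.63 to 0.13).

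Gtse1, which in dividing cells restrains p53 and is itself a gene of G2, had a ratio of 0.31 (-0.27 to 0.85) in members and 2.05 in other cells. Its level in members was 0.228 UMIs per 10000 in wt and 0.283 in ko. The difference between these ratios was not tested.

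To compare members with the rest at equal depth, each cell was thinned to 2000 UMIs and the 5-gene threshold was applied again. This gave 310 wt and 61 ko mitotic cells, selected anew and not a subset of the 315 and 67 members by design. Among wt cells with a Cdkn1a UMI 7.69% were mitotic, and among those without one 16.7%, a difference of -9.05 points (-12.0 to -5.80). In ko the shares were 5.34 and 7.95%, a difference of -2.61 (-6.04 to 0.763). Ccng1 gave the opposite sign in wt, 19.2 against 14.1%, a difference of 5.12 points (0.0593 to 10.9). Cells with Cdkn1a were thus less often mitotic in wt, and in ko the interval of the difference included 0. Cdkn1a also marked enterocytes. At 2000 UMIs it was seen in 60.8% of wt cells with enterocyte markers, 14.9% of wt members and 24.8% of other wt cells. In ko the shares were 62.9, 44.8 and 51.3%. The part of enterocytes in the wt difference was not tested.

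Stem cell genes of members stood near the wt level as a list, with a median ratio of 0.23 over 17 of 18 genes, 1 at least 2-fold higher and 2 at least 2-fold lower. The crypt base stem cell receptor Lgr5 was at 2.05 and 1.74 UMIs per 10000 (-0.24, -0.45 to -0.03). Olfm4, another crypt base marker, was at 5.77 and 7.28 (0.34, 0.23 to 0.44), where its ratio in other cells was -1.08. The Wnt-driven regulator Ascl2 was at 0.726 and 0.183 (-1.99, -2.67 to -1.37), from 534 UMIs in 186 wt members and 22 in 11 ko members. The water channel gene Aqp4 was at 0.794 and 0.208 (-1.93, -2.57 to -1.35). Cd44, a hyaluronan receptor, was the gene past 2-fold higher, at 0.137 and 0.475 (1.79, 1.29 to 2.27). Lgr5 was thus somewhat lower and Olfm4 somewhat higher in ko members, and Ascl2 and Aqp4 were far lower.

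At 2000 UMIs per cell, Lgr5 was seen in 35.2% of the 315 wt members (29.96 to 40.8%) and 19.4% of the 67 ko members (10.8 to 30.9%). It was seen in 2.40% and 0% of cells with enterocyte markers (125 wt and 97 ko cells, whose median depths were 20736 and 40471, the 0% allowing up to 3.73%). Without thinning the member shares were 93.0 and 65.7%. Olfm4 was seen in 46.3% of wt and 40.3% of ko members, against 4.8 and 3.09% of enterocyte-marker cells. Both lie above that background. The next differences use the mitotic cells selected anew after thinning. Cells with an Lgr5 UMI were more often mitotic by 8.18 points in wt (4.36 to 12.3), and by 3.29 in ko with an interval that included 0 (-1.43 to 9.64). Cells with an Olfm4 UMI were more often mitotic by 6.53 points in wt (3.24 to 9.94) and by 8.64 points in ko (3.50 to 14.95).

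Some members carried secretory transcripts. A sum of Paneth and goblet genes of at least 100 UMIs per 10000 was met by 20 wt members (6.35%, 3.92 to 9.64%) and 8 ko members (11.9%, 5.30 to 22.2%), and by 11.4 and 18.3% of the other cells. These cells held 78.8% of the Paneth and goblet UMIs of wt members and 95.5% of those of ko members. Of the 8 ko cells, 5 had 10000 UMIs or more. Scrublet, a doublet caller, marked none of the members, though it marked hardly any cell at all (0.390% of wt and 0 of 1811 ko cells), so that doublets among them were not settled by it.

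They decided the ratios of their lists. Paneth genes had a median of 3.52 over 7 genes (16.7 UMIs per 10000 in wt, 58.9 in ko) and goblet genes one of 2.19 over 5 genes (16.7 and 93.1). Without these cells the medians were 0.65 over 5 genes (1.42 and 2.70) and 0.13 over 4 genes (6.05 and 5.58). Lyz1 (lysozyme, a Paneth cell product) was at 1.10 and 24.8 in all members, with 48.8% of the ko UMIs in 1 cell, and Spink4 (a goblet cell product) at 4.37 and 46.1, with 26.4% in 1 cell. The Mcm-high cells had medians of -0.55 and -0.91 for the same lists. In ko members most Paneth and goblet UMIs thus lay in 8 cells. Without them the goblet level was no longer higher in ko, while the Paneth level remained higher, with 2 of 5 genes past 2-fold.

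Members differed among themselves in how much of the 5-gene sum came from Cdc20 and Ccnb1. The median share was 17.9% in wt and 20.8% in ko, and 17.8 and 30% in members of 10000 UMIs or more. At least 50% was reached by 29 wt and 16 ko members, with median depths of 14505 and 4559.5 UMIs, against 26026.5 and 8212 in the remaining members. Relative to those, the Cdc20-led cells had S phase genes lower by a median of -1.68 in wt (25 of 29 genes at least 2-fold lower) and -0.95 in ko (8 of 17), where 11.7% of 7864 and 5.23% of 3116 genes in all were that much lower. Pcna was lower by -1.68 and -0.88, Cdk1 by -1.60 and -1.28 and Ube2c by -1.47 and -1.22, while Cenpa was higher by 0.60 and 0.87, Ccnb2 by 1.13 and 0.81 and Pttg1 by 0.92 and 1.16. These were exceptions, since the mitosis list as a whole was lower in the Cdc20-led cells, with a median of -0.46 in wt (30 of 96 genes at least 2-fold lower, 3 higher) and -0.52 in ko (23 of 64 lower, 1 higher). Prc1 was lower by -2.79 and -2.32 and Aurkb by -2.85 and -2.14. The members thus ranged from cells with S phase transcripts to cells with few of them, in which some mitotic transcripts were higher and more were lower.

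**Figure D5:**
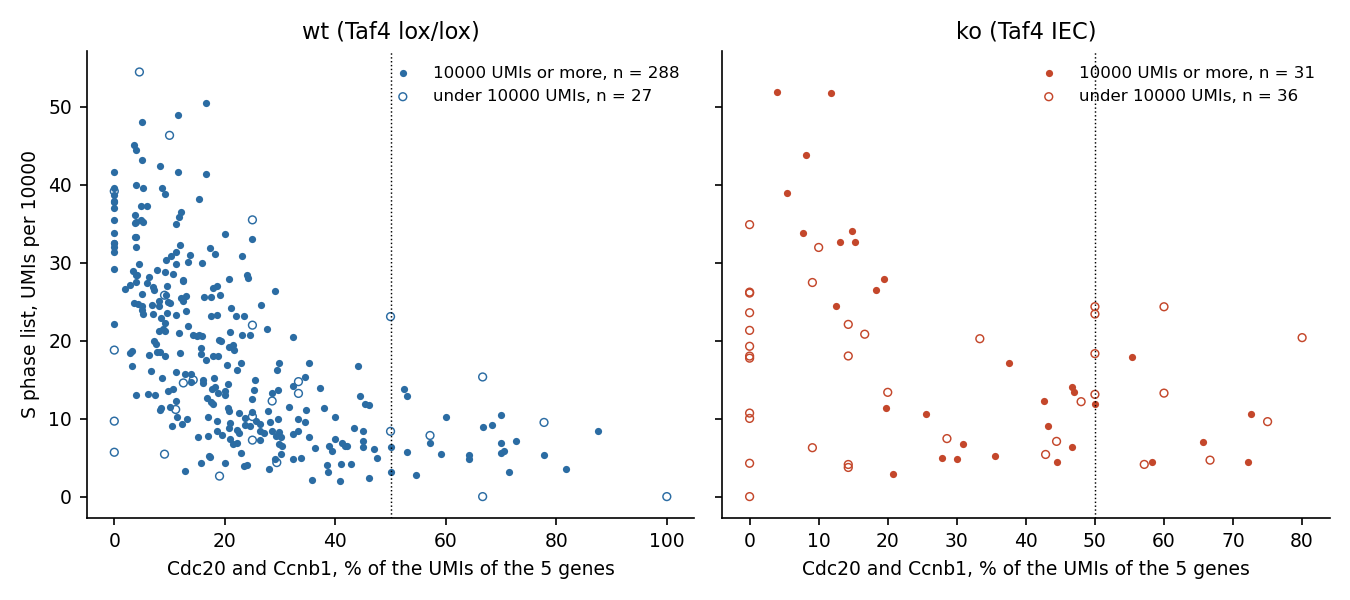
Summed S phase genes (vertical axis, UMIs per 10000) against the part of the 5-gene UMIs that came from Cdc20 and Ccnb1 (horizontal axis, %) in each mitotic cell of wt (left) and ko (right), with filled points for cells of 10000 UMIs or more and a dotted line at 50%. S phase levels reach above 40 at low shares in both libraries and stay below 25 to the right of the line, where 29 wt and 16 ko cells lie.

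Across deep members, as a description over cells that share a library, Cdc20 went with Cenpa (Spearman's rho of 0.69 over 288 wt cells and 0.85 over 31 ko cells) and with Ccnb1 (0.62 and 0.41), and against Pcna (-0.59 and -0.54). Other pairs differed between the libraries, with Cdc20 and Ube2c at 0.45 in wt and -0.04 in ko, and Cdc20 and Aurka at 0.38 and -0.07. The positive wt value for Ube2c stands beside its lower level in the Cdc20-led cells. In ko, Cdkn1a was lower in the Cdc20-led cells, at 2.02 against 5.18 UMIs per 10000 (-1.36, -1.83 to -0.92), and in wt by -0.20. The ko members not led by Cdc20 also held the Paneth and goblet transcripts, with Lyz1 at 0.439 UMIs per 10000 in the led and 30.5 in the remaining cells and Spink4 at 6.89 and 55.3. The part of those cells in the Cdkn1a difference was not tested.

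Other lists showed smaller differences. Glycolysis genes had a median ratio of -0.28 in members, where the median of all genes was 0.21, and of 0.10 in other cells. Ldha (lactate dehydrogenase A) was at 14.7 and 11.6 UMIs per 10000 (-0.34, -0.43 to -0.26) and Gapdh at 30.8 and 26.7 (-0.20, -0.26 to -0.15). Oxidative phosphorylation genes had a median of 0.00 over 18 genes, and the subunits and partners of the Polycomb repressive complex 2 one of 0.22 over 9 genes, with none past 2-fold in either list. Ezh2, its methyltransferase, was at 1.66 and 2.06 (0.31, 0.10 to 0.51). Ldha and Gapdh lay below the median of all genes, and Ezh2 slightly above it.

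The stress response list was lower in ko members, with a median of -0.56 and 4 of 11 genes at least 2-fold lower. Of all genes, 2.78% were that much lower. The list joins genes of the amino acid and unfolded protein response to immediate early genes such as Fos and Egr1. Egr1 went the other way, at 0.674 and 0.589 UMIs per 10000 in Cdc20-led and remaining wt members and 1.62 and 1.16 in ko. Asns (asparagine synthetase) was at 1.53 and 0.691 UMIs per 10000 (-1.15, -1.49 to -0.83), Ddit3 (Chop) had a ratio of -1.31, and Trib3 one of -1.94 with 94 and 4 UMIs. Chac1, a glutathione-degrading enzyme, had 69 UMIs in wt members and 0 in ko members. Atf4, the regulator of these genes, was at 1.61 and 1.09 (-0.56, -0.84 to -0.30). The list was also lower in the other ko cells, with a median of -0.72. The EGF family ligand Areg (amphiregulin) was higher, at 0.476 and 4.31 (3.18, 2.98 to 3.38), with 33.0% of ko UMIs in 1 cell, and the keratin genes Krt8 (1.21) and Krt19 (0.98) were higher in ko members as they were in other cells (1.06 and 1.30).

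The highest ratio of ko over wt members among genes with at least 100 UMIs belonged to Gm26917, at 0.340 and 49.1 UMIs per 10000 (7.17, 6.99 to 7.36). Of its 5897 ko UMIs, 5828 lay in shallow members, at 419 per 10000 against 0.650 in deep ko members and 76.0 in the other ko cells of 2000 to 10000 UMIs. The 13 ko members with 100 or more of its UMIs (19.4%) had at most 6223 UMIs each. It was followed by Crip2 (4.63, from 20 and 81 UMIs), Lyz1 (4.49), the Paneth metalloproteinase gene Mmp7 (3.87) and the histone gene Hist1h2bc at 0.169 and 2.35 (3.80, 3.49 to 4.12). Gm26917 was thus a feature of shallow ko cells and not of ko members in general.

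At the other end, 8 genes with at least 100 UMIs in wt members had no UMI in ko members, where a count of 0 allows up to 0.0250 per 10000. Gm10260 had 4825 UMIs in 314 of the 315 wt members, 6.56 per 10000, or 263-fold the floor (upper log2 limit -7.74), with 11 UMIs in all other ko cells. Bex1 (brain expressed X-linked 1, chromosome X, 136213972 to 136215513) had 3990 UMIs in 307 wt members, 5.42 per 10000, or 217-fold the floor (upper log2 limit -7.46), with 68 UMIs in the other ko cells. Of those 68, 34 lay in Mcm-high cells, where Bex1 was at 5.53 per 10000 in wt and 0.434 in ko (-3.67, -4.20 to -3.18), a smaller difference. Gm10260 and Bex1 were thus present in nearly every wt member. H2-T3 (9.96-fold the floor, upper log2 limit -3.00), Cdo1 (8.60, -2.79), Neurog3 (6.64, -2.41) and Emid1 (6.48, -2.37) were also listed in the ko table. Gm42047 and BC023719, with 397 and 127 wt UMIs, have no row in the ko table used here, so no fold is given for them. Neurog3, the regulator of enteroendocrine precursors, had its 122 wt UMIs in 12 members, with 55.7% of them in 1 cell. Its fold thus rests on few wt cells. Outside the members Neurog3 was not absent from ko, at 0.838 UMIs per 10000 against 0.379 in wt.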

How the data were processed

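The deposited values are whole-number counts of molecules (UMIs) for each gene in each cell, which the authors made from 10x Chromium 3′ libraries. Per the labels and methods, they used bcl2fastq 2.17.1.14 and Cell Ranger 3.1 with the mm10 genome, and kept cells of 200 to 6000 genes with under 15% mitochondrial reads, while Seurat 3.1.4 served their later steps. Here the counts were used without normalization in Python 3.11.15 with numpy 2.4.6 and scipy 1.17.1.

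Cells with at least 2000 UMIs and at least 8 UMIs of Mki67, Top2a, Cenpf, Ccnb1 and Cdc20 per 10000 were taken as mitotic. UMIs were summed over the cells of a set, and levels are UMIs per 10000 with exact Poisson intervals. Log2 ratios have exact conditional binomial intervals, shares of cells Clopper-Pearson intervals, and differences of shares Newcombe's square-and-add intervals, all at 95%. They treat UMIs and cells as independent and cover counting error only. With 1 library per group no test between groups was made. Genes with at least 50 UMIs over both sets were compared, and a gene was counted as different at 2-fold. A fold against 0 UMIs takes a floor of 3 counts over the group and leaves out counting error, so the interval of the log2 ratio can allow a smaller fold. Thinning drew 2000 UMIs from each cell.

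Named genes are those of the selection, genes of the lists, Taf4 and Taf4b, the 10 genes highest in members over other cells in both libraries, and the 5 highest and 5 lowest ratios of ko over wt among genes with at least 100 UMIs. As 8 genes without a UMI in ko members tied for lowest, all were named, of which 2 have no row in the ko table. The members and the gene lists were chosen with earlier results of these data known, and counts over a list are read against the count over all genes. Gene positions and promoters come from RefSeq (GRCm38.p6), where the promoter table held 82 of the 97 mitosis genes and 25 of the S phase genes. Doublets were called with Scrublet in scanpy 1.11.5 and were kept, since the caller marked too few cells to be used. The computation was tested on simulated data. Alternatives for the cell, gene and depth settings were recomputed.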

Additional observations from a re-analysis of the deposited data

Results flagged for a closer look

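These genes had ratios of opposite sign, at least 0.5 in size on the log2 scale, in the 2 sets of cells compared. The difference between the sets was not tested in any case, and among many listed genes some such pairs arise from counting error alone.

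For ko over wt, several genes of DNA synthesis and repair were higher in ko among mitotic cells and lower in ko among the other cells. Ccne1 had a ratio of 1.44 in mitotic cells and -0.83 in the others, Rrm2 0.69 and -0.83, Gins2 (a subunit of the replicative helicase complex) 0.56 and -1.31, Chaf1b (a histone chaperone at replication forks) 0.52 and -1.33, and Fanca (interstrand crosslink repair) 0.89 and -2.11. The same held for the mitosis genes Cenpk (0.54 and -0.99) and Troap (0.70 and -2.14), and for Cdc20 (0.69 and -0.65), which is itself a gene of the selection.

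The defensin genes Defa17 (-1.73 and 1.49) and Defa24 (-0.63 and 1.18), made by Paneth cells, and the enterocyte fatty acid binding protein gene Fabp2 (-0.54 and 1.13) had the reverse order. A single cell held 82.3% of the Defa24 UMIs of ko members.

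For mitotic over other cells, Lyz1 had a ratio of -1.80 in wt and 0.57 in ko, and Mmp7 one of -2.05 and 0.70. Single cells held 48.8 and 42.7% of their UMIs in ko members.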

How the results depend on the processing

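With 1 library per group, no value carries an error between cultures, and 67 ko members, of which 36 were shallow, limit the genes of low level. The 31 deep ko members held most of the ko UMIs that the levels pool. Of 136 alternatives over the values compared between ko and wt, 108 stayed within the interval used or within 1.5 times the count, 27 moved further and 1 changed sign. For list medians that interval ran between the medians of the lower and upper limits of single genes, -0.45 to 0.26 for the mitosis lists. It is not an interval of the median itself, so staying within it is a loose criterion. The alternatives by 10000 UMIs, by 5000 genes, by Paneth and goblet transcripts and by the reduced total in the same cells were chosen after seeing the data. The median ratio of the mitosis lists stayed between -0.25 and 0.01 in all 20 alternatives, that of the p53 lists between 0.052 and 1.31. No paired analysis was possible because each group is 1 library and no result comes from a test.

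The difference in mitotic share, -7.59 points as reported, was -4.21 from 1000 UMIs, -9.996 from 5000 and -11.2 from 10000 UMIs per cell, and 6.17 among cells of 2000 to 10000 UMIs. It was -10.7 at a threshold of 5 and -4.27 at one of 12, -5.10 without Mki67 and -3.63 without Top2a in the sum, and -12.1 with the total that left out mitochondrial, ribosomal protein, Gm42418 and AY036118 transcripts. That total also changed which cells were selected. The S phase median of 0.00 was -0.57 under that setting (-0.16 in the same cells), -0.58 without cells of 5000 genes or more and -1.09, from 1 gene, among cells of 2000 to 10000 UMIs. In those cells the p53 median of 1.12 was 0.052, from 2 genes, and the stem median of 0.23 was 0.88, from 4 genes. The causes were not tested.

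The 494 genes higher in ko were 86 after thinning, 1032 with each cell at the same weight, 887 and 110 with gene filters of 20 and 200 UMIs, 46 among cells of 2000 to 10000 UMIs, 929 without cells of 5000 genes or more and 324 with the reduced total in the same cells. The 232 lower ones were 80, 439, 421, 70, 23, 658 and 314 in the same order, and 363 with the reduced total used for selection as well. Thinning and the cells of 2000 to 10000 UMIs left 1857 and 674 genes to compare, against 8349.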
